A study of Mus musculus with 2 samples.

Results

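Conventional type 1 dendritic cells (cDC1) of the mouse lung that carried no transcript of the Epcam, Cldn1, Cd207 and Plet1 programme were compared between adult and neonatal mice. They were picked from droplet single-cell RNA sequencing by unique molecular identifiers (UMIs, 1 per captured transcript). A member had at least 2 UMIs of Xcr1 and Clec9a together, no UMI of Ccr7, Mki67 or Top2a, and no UMI of the 4 programme genes, in a barcode of 500 or more genes and 1000 or more UMIs, no more than 10% of them mitochondrial. That gave 464 cells of 12968 that passed the cell filters and of 1366 cDC1 under the same gate, and 73 of the 464 were adult and 391 neonatal. The sort took live CD45.2+ YFP+ lung cells of zbtb46-cre x rosa26-yfp mice. The adult group was 8 weeks old and the neonatal group 7 days old, with 2 pools of at least 5 mice each. All mice carry the same 2 alleles, so YFP marks any cell in which the Zbtb46-driven Cre was ever active and is not limited to dendritic cells. Members numbered 43 and 30 in adult pools 1 and 2 and 195 and 196 in neonatal pools 1 and 2.

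The cDC1 lineage depends on the transcription factors Irf8, Batf3 and Id2. It takes up dead cells through receptors such as Clec9a, presents their antigens on major histocompatibility complex (MHC) class I to CD8 T cells, and follows the chemokine Xcl1 through Xcr1. In the lung many cDC1 lie along the airways, where the integrin chain Itgae (CD103), the adhesion molecules Epcam and Cldn1 and the lectin Cd207 (langerin) are found on part of them. Tlr3, a receptor of double-stranded RNA in endosomes, and Naaa, a lysosomal amidase, are common cDC1 markers.

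The label was checked against these markers. Tlr3 was found at 266 and 199.9 CPM in adult pools 1 and 2 and 234 and 215 CPM in neonatal pools 1 and 2, and Naaa at 1279.5 and 1409 CPM in adult pools 1 and 2 and 1941 and 1784 CPM in neonatal pools 1 and 2. In cDC2 of the same pools, Tlr3 was at 14.9 and 14.9 CPM in adult pools, against 7.83 and 10.2 CPM in neonatal pools, and Naaa at 241 and 296 CPM in adult pools, against 541 and 619 CPM in neonatal pools. Both markers, which the gate did not use, were far higher in the members than in cDC2 in every pool. Of 25 tested genes on the list of cDC1 markers, which holds 4 genes of the gate or label, none was at 0 in either age. No barcode was shared between members of different pools, against 14 shared between ages over all barcodes.

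Summed member UMIs came to 300899 and 215099 in adult pools 1 and 2 and to 1238006 and 1280656 in neonatal pools 1 and 2, with medians of 7431 and 7884 UMIs per adult cell and 6434 and 6447 per neonatal cell. Levels are given as CPM, the UMIs of a gene scaled to such a sum in the usual way. A gene with 3 UMIs would stand at 9.97 and 13.95 CPM in adult pools and at 2.42 and 2.34 CPM in neonatal pools. The 2 pools of an age were hashtagged, joined and loaded together, so age and loading channel cannot be told apart. Sex differed too. Cells with Y-linked UMIs and no Xist UMI numbered 29 and 18 in adult pools and 2 and 29 in neonatal pools, and cells with Xist and no Y-linked UMI numbered 0 and 0 in adult pools and 172 and 138 in neonatal pools. Some members carried transcripts typical of other cells. With 20 or more S100a8 and S100a9 UMIs, 10 or more Apoe UMIs, or fewer than 3 Irf8 and Naaa UMIs, 4 adult and 8 neonatal members stood apart, and results that rest on them are given with and without them. This choice was made after seeing the data.

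The share of gated cDC1 without any programme UMI is fixed by the rule and is given as a description. It was 21.0% (95% Wilson interval 16.0 to 27.1) and 21.1% (15.2 to 28.6) in adult pools, against 37.6% (33.6 to 41.9) and 39.1% (34.9 to 43.5) in neonatal pools. Cells with 1 programme UMI numbered 30 and 19 in adult pools and 129 and 138 in neonatal pools, and cells with 2 or more numbered 132 and 93 in adult pools and 194 and 167 in neonatal pools. A 0 depends on depth: with each cell thinned to 1000 UMIs the share was 66.8% and 62.7% in adult pools and 80.3% and 83.03% in neonatal pools. Among cells with at least 3000 UMIs it was 18.5% and 18.7% in adult pools and 37.1% and 38.2% in neonatal pools. Both adult pools lay below both neonatal pools in each count.

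**Figure D1:**
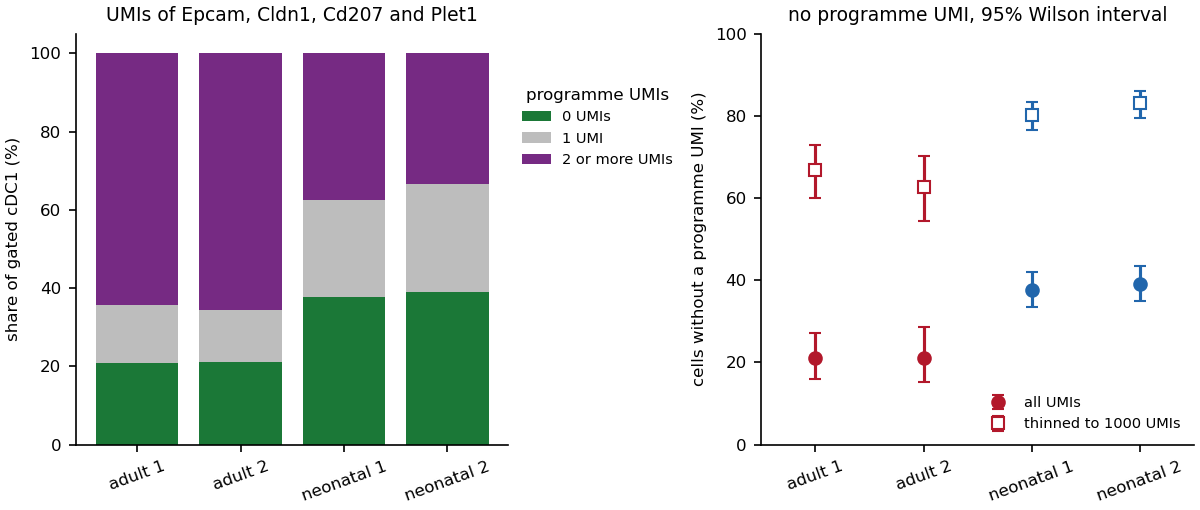
Left, share of gated cDC1 (percent, y axis) with 0, 1 and 2 or more UMIs of Epcam, Cldn1, Cd207 and Plet1 in each pool, adult left of neonatal; right, the share without such a UMI with its 95% Wilson interval, as counted and with cells thinned. Cells without a programme UMI made up 21.0% and 21.1% of adult and 37.6% and 39.1% of neonatal gated cDC1.

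Levels on either side of the threshold of 1 UMI differed between genes. Itgae stood at 209 and 158 CPM in adult cells without a programme UMI, 272 and 181 CPM in adult cells with 1 UMI and 365 and 339 CPM in adult cells with 2 or more. In neonatal pools the same steps were 466 and 374, 478 and 451 and 539 and 527 CPM. Plac8, a small cysteine-rich protein found in many myeloid cells, ran the other way, with 253 and 335, 38.3 and 7.86 and 20.03 and 26.2 CPM over these steps in adult pools and 236 and 309, 181 and 92.96 and 46.8 and 144 CPM in neonatal pools. Cells just outside the threshold were thus nearer to the programme-positive cells than to the members for Plac8 in adult pools. For Itgae, cells with 1 UMI lay between both.

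Between ages, 286 of 6748 genes tested in the members changed, which is 4.24%. Of these, 188 (2.79%) were higher in adult members and 98 (1.45%) were lower. These shares over all genes tested are the background for each list count of the members below. The test was edgeR's quasi-likelihood test on UMIs summed per pool with Benjamini-Hochberg adjustment over all genes tested, at an adjusted p under 0.05. The p-values of age measure only the spread between the 2 pools of an age. Those of the interactions given further below measure only how the difference between classes varied between such pools. A change of 2-fold or more was fitted for 105 of the genes that rose and 41 of those that fell. In all 286 the pools of the ages did not overlap, against 46.3% of all genes tested. Fold changes are adult over neonatal on the log2 scale, with the standard error after the ± sign, and their median over all genes tested was -0.0002. Against this many calls, DESeq2's Wald test on the same sums made 69 higher and 15 lower, and leaving out 1 of the neonatal pools left 64 to 72 higher and 18 to 27 lower. Of 96 named genes that were called, 68 and 78 stayed called without adult pool 1 and 2, and 41 and 45 without neonatal pool 1 and 2.

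**Figure D2:**
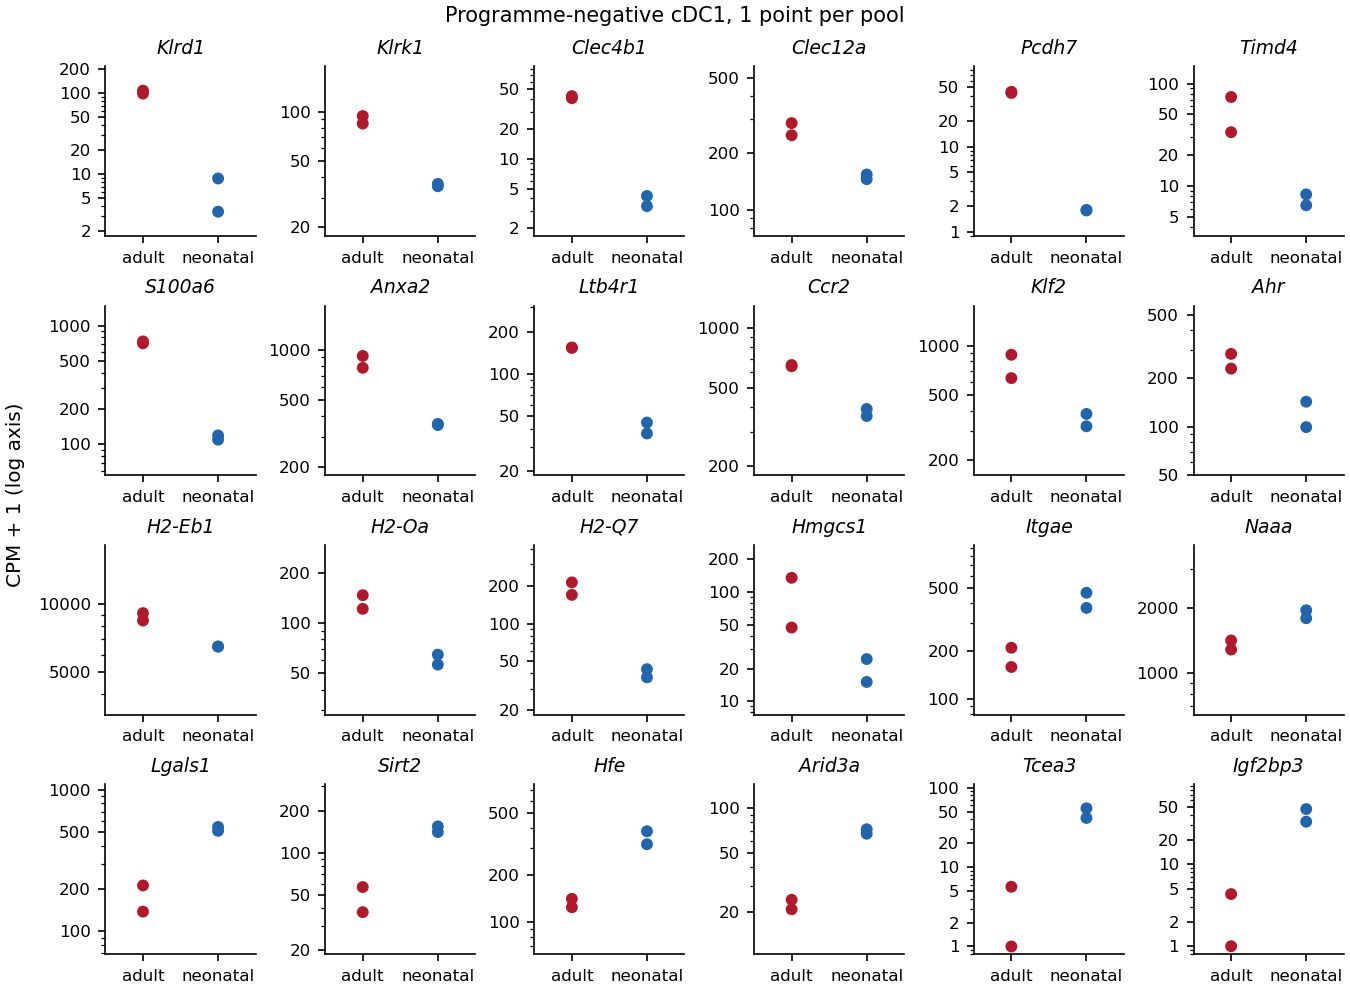
Levels of named genes in the members of each pool (CPM + 1, log axis), adult pools left of neonatal pools, 1 point per pool. Klrd1 stood at 106 and 97.6 CPM in adult pools and at 2.42 and 7.81 CPM in neonatal pools, and Lgals1 at 136 and 209 CPM in adult pools and 544 and 511 CPM in neonatal pools.

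Most genes of the cDC1 identity did not pass the test. None of the 25 tested cDC1 markers rose and 4 fell in adult members, with a median log2 fold change of -0.29. Irf8 was at 1825 and 2162 CPM in adult pools, against 2296 and 2372 CPM in neonatal pools (log2 fold change -0.23 ± 0.08, adjusted p = 0.126), and Batf3 at 189 and 302 CPM in adult pools, against 262 and 239.7 CPM in neonatal pools (adjusted p = 0.919). Wdfy4, needed for cross-presentation, was at 671 and 646 CPM in adult pools, against 769 and 750.4 CPM in neonatal pools (adjusted p = 0.417). The pools of the ages overlapped for Batf3. They did not for Irf8 and Wdfy4, whose differences still missed the threshold. Zbtb46, whose locus drives the Cre, was at 59.8 and 79.03 CPM in adult pools, against 75.9 and 61.7 CPM in neonatal pools (adjusted p = 0.991), so its level overlapped between ages.

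Among the 4 markers that fell, Itgae, the CD103 chain that pairs with Itgb7 and binds E-cadherin on epithelium, had the smallest p (209 and 158 CPM in adult pools 1 and 2 and 466 and 374 CPM in neonatal pools 1 and 2, log2 fold change -1.16 ± 0.17, adjusted p = 1.06e-05). It maps to chr11:73090583-73147446 on GRCm38. Naaa, given above, fell by 0.47 on the log2 scale (adjusted p = 0.000398). Tlr12, which with Tlr11 senses a profilin of protozoan parasites, was at 6.65 and 27.9 CPM in adult pools, against 47.7 and 53.1 CPM in neonatal pools (log2 fold change -1.68 ± 0.46, adjusted p = 0.0251). Tlr11 lay at 26.6 and 55.8 CPM in adult pools, against 69.5 and 85.1 CPM in neonatal pools, and did not pass (adjusted p = 0.0791). Id2, an inhibitor of DNA-binding helix-loop-helix factors, was at 871 and 1065 CPM in adult pools, against 1181 and 1238 CPM in neonatal pools with an adjusted p of 0.0491, close to the threshold. Without the Scrublet doublets, the call of Id2 was lost (adjusted p = 0.127), while that of Itgae was kept. With neonatal cells limited to the 29 male cells of pool 2, neither Itgae (adjusted p = 0.126) nor Naaa (0.714) passed. Leaving out 1 pool ended the call by edgeR of Naaa without neonatal pool 1 (0.218), Tlr12 without adult pool 1 (0.549) and neonatal pool 1 (0.0733) and neonatal pool 2 (0.217) and Id2 without adult pool 1 (0.436) and neonatal pool 1 (0.507) and neonatal pool 2 (0.712) (adjusted p in parentheses).

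Genes of MHC class II presentation rose in adult members. Of 14 tested, 9 rose and none fell, with a median log2 fold change of 0.38. The 9 were the chains H2-Aa, H2-Ab1 and H2-Eb1, the invariant chain Cd74, the peptide exchange factors H2-DMa, H2-DMb1 and H2-DMb2, and their modulators H2-Oa and H2-Ob. H2-Eb1 was at 9146 and 8484 CPM in adult pools 1 and 2 and 6512 and 6501 CPM in neonatal pools 1 and 2 (log2 fold change 0.44 ± 0.06, adjusted p = 6.73e-06). Cd74 was at 24756 and 23045 CPM in adult pools, against 17791 and 17546 CPM in neonatal pools (log2 fold change 0.44 ± 0.06, adjusted p = 8.66e-07), and H2-Aa at 10029.9 and 9642 CPM in adult pools, against 7918 and 7889.7 CPM in neonatal pools (log2 fold change 0.32 ± 0.06, adjusted p = 0.000644). All adult pools lay above all neonatal pools in these genes. H2-Oa, which restrains H2-DM, had the larger fold, with 146 and 121 CPM in adult pools, against 63.8 and 55.4 CPM in neonatal pools (log2 fold change 1.19 ± 0.23, adjusted p = 0.000474). Its call was lost without adult pool 1 (adjusted p = 0.0697 by edgeR). In programme-positive cDC1 of the same pools, 10 of 16 tested members of the list rose and 1 fell, where 8.37% of all genes tested rose and 5.87% fell. In cDC2, 10 of 15 rose, where 7.62% of all genes tested rose and 4.16% fell. By edgeR with a pool left out, no call was made for H2-Aa without neonatal pool 1 (0.19) and neonatal pool 2 (0.162) and H2-Ab1 without neonatal pool 1 (0.0605) and neonatal pool 2 (0.178) (adjusted p in parentheses).

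The promoters of 3 of these genes are shown because they rose together and hold the same element. The Y box of MHC promoters, searched as the letters CTGATTGG on both strands, is bound by the factor NF-Y. The 300 bases from 250 before to 50 after each transcript start come from RefSeq on GRCm38.p6, 5′ to 3′ on the gene's strand, with the element in capitals.
H2-Aa, chr17:34287774-34288073, minus strand: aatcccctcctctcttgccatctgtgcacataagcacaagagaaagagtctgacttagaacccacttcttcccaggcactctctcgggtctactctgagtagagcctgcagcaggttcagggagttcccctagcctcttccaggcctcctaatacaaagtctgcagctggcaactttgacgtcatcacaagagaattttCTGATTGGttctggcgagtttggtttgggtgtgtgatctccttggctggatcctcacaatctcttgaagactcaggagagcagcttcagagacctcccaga
H2-Eb1, chr17:34305617-34305916, plus strand: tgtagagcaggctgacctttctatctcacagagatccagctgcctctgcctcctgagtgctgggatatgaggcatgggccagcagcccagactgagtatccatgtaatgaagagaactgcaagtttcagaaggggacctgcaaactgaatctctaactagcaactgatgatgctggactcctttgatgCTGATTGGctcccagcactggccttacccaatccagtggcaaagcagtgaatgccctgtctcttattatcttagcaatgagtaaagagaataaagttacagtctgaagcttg
H2-Oa, chr17:34092129-34092428, plus strand: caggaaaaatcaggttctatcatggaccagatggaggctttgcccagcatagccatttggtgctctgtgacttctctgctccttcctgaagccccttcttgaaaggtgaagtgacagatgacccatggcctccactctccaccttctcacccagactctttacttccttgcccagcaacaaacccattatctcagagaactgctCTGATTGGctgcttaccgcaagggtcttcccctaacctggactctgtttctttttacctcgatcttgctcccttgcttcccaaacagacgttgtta
The element begins 51 bases before the start in H2-Aa, 62 before it in H2-Eb1 and 46 before it in H2-Oa.

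Genes of MHC class I presentation rose as well. Of 23 tested, 6 rose and none fell, with a median log2 fold change of 0.17. H2-K1 was at 844 and 939 CPM in adult pools, against 514 and 547 CPM in neonatal pools (log2 fold change 0.75 ± 0.11, adjusted p = 7.95e-06), and H2-D1 at 1439 and 1674 CPM in adult pools, against 1057 and 1013 CPM in neonatal pools (log2 fold change 0.59 ± 0.09, adjusted p = 2.54e-05). The light chain B2m was at 1193 and 1497 CPM in adult pools, against 849.8 and 901 CPM in neonatal pools (log2 fold change 0.61 ± 0.10, adjusted p = 5.45e-05). Qa-2 genes had the larger change, with H2-Q7 at 169 and 214 CPM in adult pools 1 and 2 and 42.003 and 35.9 CPM in neonatal pools 1 and 2 (log2 fold change 2.28 ± 0.22, adjusted p = 1.44e-09). H2-Q6 and H2-T23 were the other 2. The H2-Q and H2-T genes have near-identical copies, so the split of reads between them is uncertain. The promoter of H2-D1 is shown because it carries the element of the class II genes shown above on the opposite strand, as CCAATCAG, in capitals.
H2-D1, chr17:35262844-35263143, plus strand: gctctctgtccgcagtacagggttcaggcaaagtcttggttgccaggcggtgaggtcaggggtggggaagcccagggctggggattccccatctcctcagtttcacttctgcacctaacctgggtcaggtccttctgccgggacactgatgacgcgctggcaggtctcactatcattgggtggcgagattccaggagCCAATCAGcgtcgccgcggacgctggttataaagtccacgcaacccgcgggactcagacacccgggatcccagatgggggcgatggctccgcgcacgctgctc
Here the element lies 53 bases before the start. The search covered 14 of the MHC genes that rose, all but Cd74. Of these, 13 had a RefSeq promoter and 8 of these held the element on either strand, against 4.1% of 32851 promoters of the same length. This count is by gene, while the share is by promoter. The others that held it were H2-K1, H2-Q6, H2-Q7 and H2-T23, on the opposite strand. In H2-K1 it begins 6 or -8 bases before the start, by transcript, and in H2-Q7 16 before it, nearer than in those shown. The class II genes H2-DMa, H2-DMb1, H2-DMb2 and H2-Ob did not hold it, nor did B2m. A match is a description of letters in this window. The edgeR call was lost for H2-K1 without neonatal pool 1 (0.0534), H2-D1 without neonatal pool 2 (0.0593) and B2m without neonatal pool 1 (0.0798) (adjusted p in parentheses).

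Receptors of the C-type and NK-type lectin families rose with age in the members. Of 9 tested, 4 rose and none fell, where 2.79% of all genes tested rose and 1.45% fell. In programme-positive cDC1 of the same pools, 7 of 12 tested rose and 2 fell, where 8.37% of all genes tested rose and 5.87% fell. Klrd1 (chr6:129591782-129598775), which encodes CD94, a partner of the Nkg2 receptors that bind the class Ib molecule Qa-1, was at 106 and 97.6 CPM in adult pools 1 and 2 and 2.42 and 7.81 CPM in neonatal pools 1 and 2 (log2 fold change 4.28 ± 0.40, adjusted p = 5.81e-10), or 53 adult against 13 neonatal UMIs. A Klrd1 UMI was seen in 34.9% and 36.7% of cells in adult pools and 1.03% and 3.06% in neonatal pools. Programme-positive cDC1 shared the rise, with a Klrd1 UMI in 171 of 225 adult cells (431 UMIs) and 6 of 361 neonatal cells (17 UMIs). Neutrophils, which should lack Klrd1, carried one in 1.09% and 1.89% of cells in adult pools and 0.9804% and 0.348% in neonatal pools. Neutrophils had a median of 1677 and 1734 UMIs per cell in adult pools and 1657 and 1656 in neonatal pools, below that of the members. With members thinned to 1000 UMIs the shares were 4.65% and 6.67% of cells in adult pools and 0% and 0.5102% in neonatal pools, where 0 of 195 cells in neonatal pool 1 allows a share of up to 1.54%. At full depth both adult shares lay above both neonatal shares and above the neutrophils of every pool. Neonatal pool 1 lay near the neutrophil shares, and neonatal pool 2 above them. At 1000 UMIs each adult share rests on 2 cells.

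Klrd1 is also a gene of NK cells, which held 1126 and 1191 CPM in adult pools, against 694 and 751 CPM in neonatal pools. The summed level of the NK cell markers was 46.5 and 41.8 CPM in adult members and 35.5 and 33.6 CPM in neonatal members, with 8 of 12 markers at 0 in adult members and 6 at 0 in neonatal members. Klrk1 (NKG2D) was at 93.1 and 83.7 CPM in adult pools, against 35.5 and 34.4 CPM in neonatal pools (log2 fold change 1.35 ± 0.29, adjusted p = 0.00193). The adult pools of Klrk1 lay above the neonatal ones. AW112010, an interferon-inducible transcript, was at 103 and 107 CPM in adult pools 1 and 2 and 8.89 and 6.25 CPM in neonatal pools 1 and 2 (log2 fold change 3.77 ± 0.36, adjusted p = 6.19e-10). NK cells carried 5242 and 5244 CPM in adult pools, against 1858 and 2296 CPM in neonatal pools of AW112010 and neutrophils 116 and 74.4 CPM in adult pools, against 28.9 and 16.1 CPM in neonatal pools, so both classes also had more of it in adult pools. The part of free RNA in the rise of AW112010 was not tested.

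Of the lectins, Clec12a, an inhibitory receptor that also binds uric acid crystals, was at 286 and 246 CPM in adult pools, against 144 and 152 CPM in neonatal pools (log2 fold change 0.86 ± 0.17, adjusted p = 0.000566). Clec4b1 was at 39.9 and 41.8 CPM in adult pools, against 3.23 and 2.34 CPM in neonatal pools (log2 fold change 3.80 ± 0.60, adjusted p = 2.81e-05). Clec12a is on the list of cDC2 markers too, of which 2 of 7 tested rose, Clec12a and Klf4, and none fell. Summed over that list, levels were 705 and 739 CPM in adult members and 384 and 413 CPM in neonatal members, with 2 of 16 markers at 0 in each age. Clec4b1 stood at 303 and 316 CPM in adult pools, against 189 and 188 CPM in neonatal pools in cDC2. Whether cDC2 transcripts contributed was not tested. Without members that held any UMI of S100a8, S100a9, Nkg7, the C1q genes or Mgl2, Klrd1 was still called (4.23, adjusted p = 9.83e-06), as were AW112010 (adjusted p = 1.27e-07) and Klrk1 (0.00382). Clec12a was not (adjusted p = 0.089), and Clec4b1 was not tested there. With 1 pool left out, edgeR no longer called Clec12a without neonatal pool 1 (0.119) and neonatal pool 2 (0.0664), Clec4b1 without neonatal pool 1 (0.618) and neonatal pool 2 (0.677) and Klrk1 without adult pool 1 (0.0734) (adjusted p in parentheses).

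A pair of surface genes nearly absent from neonatal members rose in adult members. Timd4, the phosphatidylserine receptor TIM-4 used to bind dead cells, was at 73.1 and 32.5 CPM in adult pools 1 and 2 and 7.27 and 5.47 CPM in neonatal pools 1 and 2 (log2 fold change 3.11 ± 0.48, adjusted p = 2.23e-05). Leaving out either neonatal pool or adult pool 1 ended its call (adjusted p = 0.112, 0.147 and 0.0986). Pcdh7 (chr5:57717967-58133230), a protocadherin of cell adhesion, was at 43.2 and 41.8 CPM in adult pools 1 and 2 and 0.808 and 0.781 CPM in neonatal pools 1 and 2, from 22 adult against 2 neonatal UMIs. The ratio adult over neonatal was 53.7 with a 95% counting interval of 13.2 to 471 (adjusted p = 8.66e-07). It was called without adult pool 2, was not tested without adult pool 1, and was not called without a neonatal pool (adjusted p = 0.486 and 0.516). Both genes were found in programme-positive cDC1 of the same pools, at 104 and 139 CPM in adult pools, against 17.03 and 7.22 CPM in neonatal pools of Timd4 and 76.5 and 78.7 CPM in adult pools, against 0 and 0 CPM in neonatal pools of Pcdh7. On the list of cross-presentation and dead-cell uptake, 2 of 16 tested genes rose, Timd4 and the GTPase Rac2, and none fell.

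Calcium-binding and membrane-associated genes rose in adult members. On the list of S100, annexin and galectin genes, which also holds Ahnak, Emp1 and Emp3, 8 of 18 tested rose and 1 fell, with a median of 0.51. S100a6, the smallest p of the fit, was at 708 and 735 CPM in adult pools 1 and 2 and 118 and 109 CPM in neonatal pools 1 and 2 (log2 fold change 2.67 ± 0.14, adjusted p = 1.02e-17). Programme-positive cDC1 had a larger S100a6 rise, with 945 and 1321 CPM in adult pools, against 102 and 97.1 CPM in neonatal pools. Anxa2, an annexin of membrane repair and vesicle traffic, was at 778 and 916 CPM in adult pools, against 359 and 353 CPM in neonatal pools (log2 fold change 1.25 ± 0.12, adjusted p = 6.19e-10). The S100 partner of Anxa2, S100a10, was at 661 and 958 CPM in adult pools, against 406 and 399.8 CPM in neonatal pools (log2 fold change 0.99 ± 0.13, adjusted p = 1.2e-06). Adult pools lay above neonatal pools in all 3. Ahnak, Anxa1, Lgals3, Emp1 and Emp3 were the other 5. The exception was Lgals1, galectin-1, which fell (136 and 209 CPM in adult pools 1 and 2 and 544 and 511 CPM in neonatal pools 1 and 2, log2 fold change -1.65 ± 0.16, adjusted p = 1.56e-09).

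Pdlim1, from the list of kinases and cytoskeleton, and 2 genes outside the lists were among those with the largest rise. Pdlim1, an adaptor at actin stress fibres, was at 79.8 and 65.1 CPM in adult pools, against 7.27 and 9.37 CPM in neonatal pools (log2 fold change 3.12 ± 0.39, adjusted p = 3.84e-07). Tbxas1, thromboxane synthase, was at 69.8 and 37.2 CPM in adult pools, against 8.89 and 6.25 CPM in neonatal pools (log2 fold change 2.87 ± 0.46, adjusted p = 3.28e-05). Myof, a ferlin of membrane fusion, was at 66.5 and 41.8 CPM in adult pools, against 9.69 and 11.7 CPM in neonatal pools (log2 fold change 2.38 ± 0.41, adjusted p = 0.000135). The calls of Tbxas1 and Myof were lost without a neonatal pool, with an adjusted p of 0.112 and 0.141 for Tbxas1 and 0.114 and 0.135 for Myof, and without adult pool 1 (0.0537 and 0.0601), while Pdlim1 passed in each.

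Receptors that guide dendritic cells changed in both directions. Of 13 tested chemokine and migration receptors, 5 rose, among them Ccr2, Gpr183, Ltb4r1 and Itgb7, and 4 fell, among them Cxcr3, Itgae and Itgal. Ltb4r1, the leukotriene B4 receptor, was at 153 and 153 CPM in adult pools 1 and 2 and 36.3 and 43.7 CPM in neonatal pools 1 and 2 (log2 fold change 1.93 ± 0.24, adjusted p = 2.2e-07). Ccr2, the receptor of Ccl2, was at 641 and 651 CPM in adult pools, against 389 and 358 CPM in neonatal pools (log2 fold change 0.79 ± 0.12, adjusted p = 1.88e-05). Gpr183, which follows oxysterols, was at 46.5 and 88.3 CPM in adult pools, against 30.7 and 27.3 CPM in neonatal pools (log2 fold change 1.15 ± 0.34, adjusted p = 0.0403), and Itgb7, the partner of Itgae, at 372 and 418 CPM in adult pools, against 258 and 249.9 CPM in neonatal pools (log2 fold change 0.63 ± 0.14, adjusted p = 0.004). Itgb7 thus rose while Itgae fell. Ccr2 is also on the list of classical monocyte markers, of which 2 of 3 tested rose. Leaving out 1 pool ended the call by edgeR of Ccr2 without neonatal pool 2 (0.0764) (adjusted p in parentheses). The edgeR call of Gpr183 was lost without adult pool 2 (adjusted p = 0.542) and without neonatal pool 1 (0.137) or 2 (0.247), and that of Itgb7 without neonatal pool 1 (0.264) or 2 (0.352).

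Transcription factors of dendritic cells changed in both directions. Of 28 tested, 3 rose and 2 fell, where 2.79% of all genes tested rose and 1.45% fell. Klf2, which in T cells keeps S1pr1 on, was at 631 and 879 CPM in adult pools 1 and 2 and 380.4 and 319 CPM in neonatal pools 1 and 2 (log2 fold change 1.09 ± 0.13, adjusted p = 4.4e-07). Ahr, a receptor of diet- and microbe-derived ligands, was at 229 and 284 CPM in adult pools, against 142 and 98.4 CPM in neonatal pools (log2 fold change 1.08 ± 0.19, adjusted p = 0.00019), and Klf4 at 169 and 316 CPM in adult pools, against 120.4 and 120.3 CPM in neonatal pools (log2 fold change 0.96 ± 0.20, adjusted p = 0.00243). Arid3a fell with Id2 (19.9 and 23.2 CPM in adult pools, against 66.2 and 71.1 CPM in neonatal pools, log2 fold change -1.67 ± 0.38, adjusted p = 0.00405). Immediate early genes were the list with the most members that rose: 17 of 29 tested, with none that fell and a median of 0.75. Junb was at 1253 and 1329.6 CPM in adult pools, against 689 and 580.2 CPM in neonatal pools (log2 fold change 1.03 ± 0.10, adjusted p = 1.56e-09), Btg2 at 1502 and 1609 CPM in adult pools, against 879 and 856 CPM in neonatal pools (log2 fold change 0.84 ± 0.09, adjusted p = 1.35e-08), and Zfp36, which marks AU-rich messages for decay, at 941 and 818 CPM in adult pools, against 532 and 426 CPM in neonatal pools (log2 fold change 0.89 ± 0.12, adjusted p = 1.88e-06). The same list had 18 of 29 that rose in programme-positive cDC1 and 15 of 30 in cDC2. These genes also respond to tissue digestion and sorting, and how handling entered was not tested. By edgeR with a pool left out, no call was made for Ahr without neonatal pool 2 (0.105), Klf4 without adult pool 2 (0.264) and Arid3a without adult pool 1 (0.105) (adjusted p in parentheses).

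Of 11 tested glucocorticoid-responsive genes, 4 rose and none fell, where 2.79% of all genes tested rose and 1.45% fell. Sgk1, a kinase, was at 133 and 195 CPM in adult pools, against 84.8 and 75.7 CPM in neonatal pools (log2 fold change 1.00 ± 0.21, adjusted p = 0.00169), and Anxa1 at 452 and 637 CPM in adult pools, against 326 and 318 CPM in neonatal pools (log2 fold change 0.74 ± 0.14, adjusted p = 0.000458). Dusp1 and Txnip were the other 2, and Dusp1 is also on the list of immediate early genes. Among survival genes, 3 of 17 tested rose and 2 fell, against the same shares over all genes tested. Mcl1 was at 691 and 758 CPM in adult pools, against 470.1 and 458 CPM in neonatal pools (log2 fold change 0.64 ± 0.12, adjusted p = 0.000244) and Bcl2 at 23.3 and 13.9 CPM in adult pools, against 3.23 and 0.781 CPM in neonatal pools (log2 fold change 3.19 ± 0.78, adjusted p = 0.00965), both inhibitors of cell death, and Pmaip1, which counters Mcl1, at 156 and 205 CPM in adult pools, against 100.2 and 112 CPM in neonatal pools (log2 fold change 0.74 ± 0.19, adjusted p = 0.016). Bcl2 stood at the level of 3 UMIs in adult pool 2. It was not tested in any fit with 1 pool left out, nor without the members that stood apart. The 2 that fell, Bcl2a1b and Bcl2a1d, are near-identical copies whose reads may be split. The log2 fold change of Bcl2a1b ran from -2.33 without adult pool 1 to -0.80 without adult pool 2. The edgeR call was lost for Sgk1 without adult pool 2 (0.0948) and neonatal pool 2 (0.0643), Anxa1 without neonatal pool 1 (0.0802) and neonatal pool 2 (0.113), Dusp1 without neonatal pool 1 (0.507) and neonatal pool 2 (0.655), Txnip without adult pool 1 (0.516) and neonatal pool 1 (0.362) and neonatal pool 2 (0.247), Mcl1 without neonatal pool 1 (0.114) and neonatal pool 2 (0.171), Pmaip1 without adult pool 2 (0.217) and neonatal pool 1 (0.256) and neonatal pool 2 (0.0897) and Bcl2a1d without adult pool 2 (0.302) and neonatal pool 1 (0.242) and neonatal pool 2 (0.305) (adjusted p in parentheses).

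Sterol synthesis genes rose in adult members. Of 18 tested genes of sterol synthesis and lipid handling, 7 rose and none fell, with a median of 0.78. They included Hmgcs1, an early enzyme of the mevalonate pathway (46.5 and 135 CPM in adult pools 1 and 2 and 23.4 and 14.1 CPM in neonatal pools 1 and 2, log2 fold change 2.17 ± 0.41, adjusted p = 0.00185), and the sterol enzymes Idi1, Cyp51 and Msmo1. Msmo1 was at 26.6 and 107 CPM in adult pools, against 9.69 and 8.59 CPM in neonatal pools (log2 fold change 2.71 ± 0.50, adjusted p = 0.000895). Adult pool 2 was the higher of the adult pools in Hmgcs1 and Msmo1, and both adult pools lay above both neonatal pools. Without adult pool 2 the calls of Hmgcs1 (adjusted p = 0.106) and Msmo1 (0.224) were lost.

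Summed over Hmgcs1, Idi1, Cyp51, Msmo1 and Insig1, which were chosen after their values were seen, 3 or more UMIs were found in 16.3% and 30% of adult members and in 1.54% and 1.53% of neonatal members. The adult shares stand for 7 and 9 cells. In adult pools the top 5 cells held 52.8% and 64.8% of these UMIs, so the adult level rests largely on few cells. The top 5 held 22.5% and 22.5% in the neonatal pools, which have more members. In programme-positive cDC1, Hmgcs1 was at 30.05 and 39.98 CPM in adult pools, against 26.2 and 19.3 CPM in neonatal pools, and in nonclassical monocytes at 56.6 and 48.99 CPM in adult pools, against 25.2 and 20.7 CPM in neonatal pools. The promoter of Hmgcs1 (RefSeq, GRCm38.p6) is shown with the sterol regulatory element, searched as TCACNCCAC on both strands, in capitals.
Hmgcs1, chr13:119690101-119690400, plus strand: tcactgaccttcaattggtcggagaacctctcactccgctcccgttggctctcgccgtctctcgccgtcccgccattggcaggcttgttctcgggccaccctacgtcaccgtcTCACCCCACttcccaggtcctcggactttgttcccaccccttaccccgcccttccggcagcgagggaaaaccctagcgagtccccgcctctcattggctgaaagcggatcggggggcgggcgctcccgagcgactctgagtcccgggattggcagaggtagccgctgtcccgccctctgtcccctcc
The element begins 137 bases before the start. It was in 1.24% of 32851 promoters and in 1 of these 5 genes, all with a RefSeq promoter.

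Another gene of that list that rose, Apoe, rested on single cells. Apoe was at 163 and 181 CPM in adult pools, against 87.2 and 92.9 CPM in neonatal pools (log2 fold change 0.93 ± 0.19, adjusted p = 0.00164), but 1 adult cell held 43 of 88 adult UMIs. Without the 4 adult and 8 neonatal members that stood apart, the fitted log2 fold change was -2.15. Those members were picked partly by 10 or more Apoe UMIs, so this value is a description and no test of Apoe. Apoe was also the 1 called gene of 2 tested macrophage markers, whose summed level was 183 and 200 CPM in adult members and 109 and 108 CPM in neonatal members, with 10 of 14 markers at 0 in adult members and 7 at 0 in neonatal members.

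Il1b, which encodes interleukin 1 beta, was the 1 cytokine of 7 tested that rose (316 and 274 CPM in adult pools 1 and 2 and 63.005 and 78.1 CPM in neonatal pools 1 and 2, log2 fold change 2.08 ± 0.18, adjusted p = 6.46e-11). In 1 adult cell lay 22.1% of the adult Il1b UMIs, and neutrophils held 17038 and 17800.3 CPM in adult pools, against 4100.5 and 4548 CPM in neonatal pools. Without the members that stood apart, Il1b was still called (1.91, adjusted p = 2.77e-06). The summed level of 13 neutrophil markers was 2160 and 55.8 CPM in adult members and 199 and 246 CPM in neonatal members, with 4 markers at 0 in adult members. Of 6 tested chemokines, 1 rose, Ccl4, at 96.4 and 32.5 CPM in adult pools, against 16.96 and 28.9 CPM in neonatal pools, with 75% of its adult UMIs in 1 cell. The edgeR call of Ccl4 was lost without adult pool 1, where its log2 fold change was 0.49 against 1.59 with all pools (adjusted p = 0.828), and without neonatal pool 1 (adjusted p = 0.109).

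Genes lower in adult members included some that were nearly absent there. Of 6 tested fetal growth and RNA-binding genes, 4 fell and none rose, with a median of -3.34 that rests on fitted values of genes near 0. Tcea3, a transcription elongation factor, was at 0 and 4.65 CPM in adult pools 1 and 2 and 54.1 and 40.6 CPM in neonatal pools 1 and 2, or 1 adult against 119 neonatal UMIs. Its ratio neonatal over adult was 24.4, with a counting interval of 4.29 to 971 (adjusted p = 0.000133). Igf2bp3 (chr6:49085223-49214957), a fetal RNA-binding protein, was at 3.32 and 0 CPM in adult pools, against 46.04 and 32.01 CPM in neonatal pools, or 1 against 98 UMIs, a ratio of 20.1 (3.52 to 801; adjusted p = 0.000625). Khdrbs3, another RNA-binding protein, had no adult UMI and 18.6 and 19.5 CPM in neonatal pools, at least 3.28-fold lower in adult members (adjusted p = 0.0101). The bound sets 3 counts over both adult pools. Arid3a, given above, was the fourth. With 1 pool left out, edgeR no longer called Tcea3 without neonatal pool 1 (0.0737) and Khdrbs3 without adult pool 1 (0.121) (adjusted p in parentheses).

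In all, 10 genes that fell had no adult UMI and 8 had 1 to 3. Stfa1, an inhibitor of cysteine proteases with near-identical copies, had none against 128 neonatal UMIs (47.7 and 53.9 CPM), at least 8.74-fold lower (adjusted p = 8.71e-06). Neutrophils held 43.2 and 132 CPM in adult pools, against 26935 and 27830.2 CPM in neonatal pools of Stfa1. The level in their own type moved the same way by more, and the part of free neutrophil RNA was not tested. Xist, of the inactive X chromosome, was among the 10, at least 84.7-fold lower, which restates the sex of the pools. Yes1, a Src family kinase, had 1 adult against 57 neonatal UMIs, a ratio neonatal over adult of 11.7 (2.01 to 469). Dapk2, a death-associated kinase, had 2 against 68, a ratio of 6.97 (1.86 to 58.7).

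Genes with counts in both ages fell too. Hfe, an MHC class I-like protein of iron balance, was at 123 and 139 CPM in adult pools 1 and 2 and 380.4 and 314 CPM in neonatal pools 1 and 2 (log2 fold change -1.41 ± 0.18, adjusted p = 8.3e-07). Sirt2, a deacetylase of the cytoplasm, was at 36.6 and 55.8 CPM in adult pools, against 153 and 139.8 CPM in neonatal pools (log2 fold change -1.71 ± 0.26, adjusted p = 2.07e-05), and Trio, a guanine nucleotide exchange factor, at 43.2 and 46.5 CPM in adult pools, against 109.9 and 117 CPM in neonatal pools (log2 fold change -1.34 ± 0.27, adjusted p = 0.00111). Hmgn2, a nucleosome-binding protein, was at 26.6 and 27.9 CPM in adult pools, against 83.2 and 63.2 CPM in neonatal pools (log2 fold change -1.42 ± 0.36, adjusted p = 0.0121), and Slc9a9, an endosomal sodium and proton exchanger, at 19.9 and 27.9 CPM in adult pools, against 65.4 and 63.2 CPM in neonatal pools (log2 fold change -1.45 ± 0.37, adjusted p = 0.0145). Ttc39a was at 9.97 and 37.2 CPM in adult pools, against 67.04 and 60.1 CPM in neonatal pools (log2 fold change -1.56 ± 0.41, adjusted p = 0.016), and Serpinf1, a secreted serpin, at 6.65 and 32.5 CPM in adult pools, against 47.7 and 74.2 CPM in neonatal pools (log2 fold change -1.79 ± 0.48, adjusted p = 0.0251). The adult pools lay below the neonatal pools in each of these. Leaving out 1 pool ended the call by edgeR of Hmgn2 without adult pool 1 (0.142) and neonatal pool 1 (0.154), Slc9a9 without adult pool 1 (0.273) and neonatal pool 1 (0.0798) and neonatal pool 2 (0.0636), Ttc39a without adult pool 1 (0.53) and neonatal pool 1 (0.088) and Serpinf1 without adult pool 1 (0.464) and neonatal pool 2 (0.285) (adjusted p in parentheses).

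Some genes of energy metabolism and translation fell. Of 72 tested genes of oxidative phosphorylation, 11 fell and none rose, with 65 negative values and a median of -0.35. Cox8a, of complex IV, was at 479 and 432 CPM in adult pools, against 766 and 736 CPM in neonatal pools (log2 fold change -0.71 ± 0.12, adjusted p = 8.75e-05), and Ndufa4 at 206 and 260.3 CPM in adult pools, against 353 and 401 CPM in neonatal pools (log2 fold change -0.71 ± 0.16, adjusted p = 0.00352). In programme-positive cDC1, 35 of 72 fell, and in cDC2 25 of 72. Of 78 tested ribosomal protein genes, 5 fell and none rose in the members (among them Rps28, Rps29, Rpl38 and Rpl41), with a median of -0.01. In programme-positive cDC1 18 of 78 rose and 10 fell, and in cDC2 49 of 78 rose and 4 fell. These counts were not tested against each other. Over all genes tested, 2.79% rose and 1.45% fell in the members, 8.37% and 5.87% in programme-positive cDC1 and 7.62% and 4.16% in cDC2. Of 21 tested kinase and cytoskeleton genes, 3 rose (Pdlim1, Rhof and Tuba1a) and 5 fell (Yes1, Dapk2, Tmsb4x, Actg1 and Pfn1). Of 23 tested lysosomal genes, 1 rose, Ctsc, and 3 fell, among them Naaa and Psap. By edgeR with a pool left out, no call was made for Cox8a without neonatal pool 1 (0.0729), Ndufa4 without adult pool 1 (0.105) and neonatal pool 1 (0.0801) and neonatal pool 2 (0.368) and Rps29 without neonatal pool 1 (0.0729) and neonatal pool 2 (0.222) (adjusted p in parentheses).

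**Figure D3:**
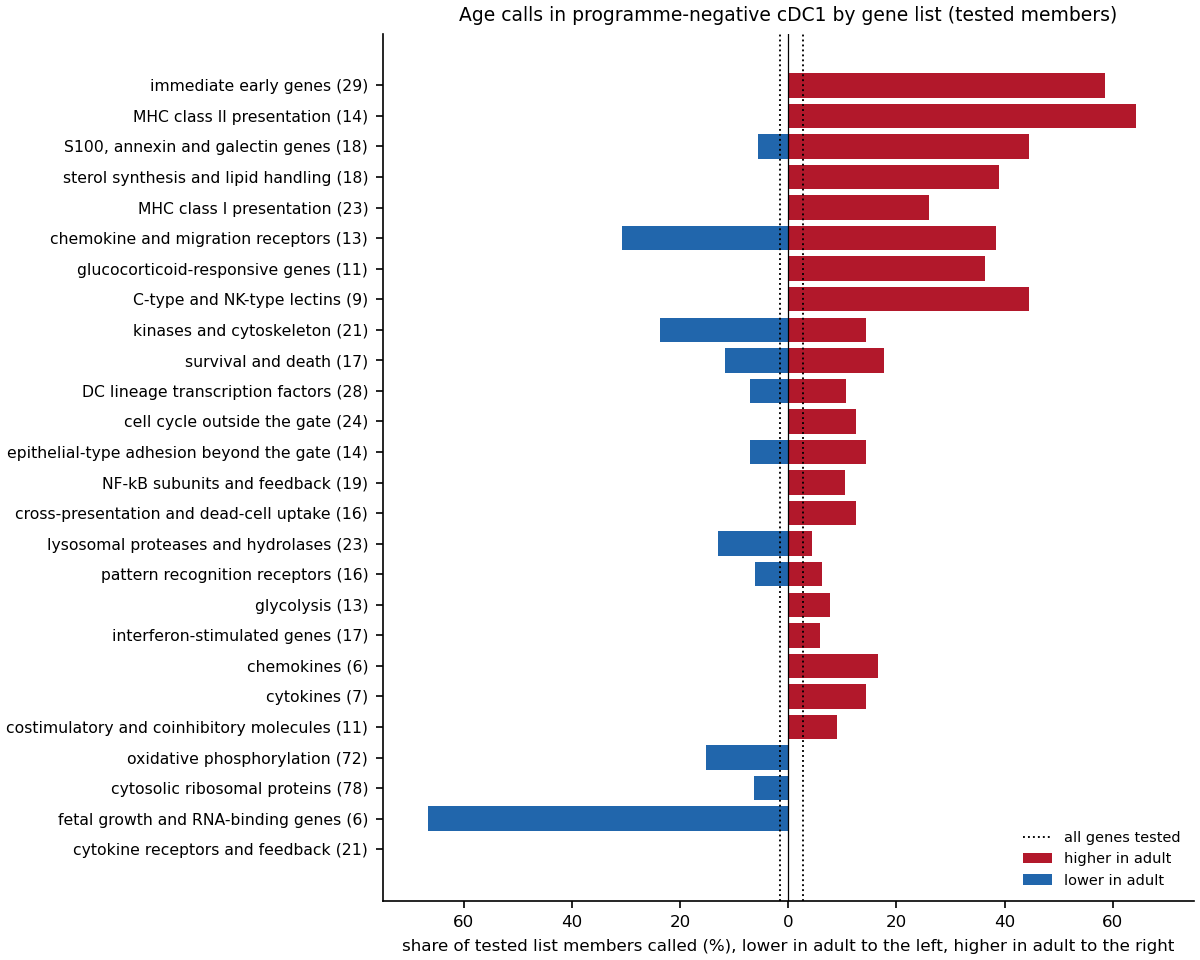
Share of the tested genes of each list (percent, x axis) that was called at an adjusted p under 0.05 in the members, lower in adult to the left of 0 and higher in adult to the right. Immediate early genes had 17 that rose of 29 tested, MHC class II presentation 9 of 14, and oxidative phosphorylation 11 that fell of 72.

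The remaining lists had few calls in number, and their counts stand beside 2.79% of all genes tested that rose and 1.45% that fell. In cytokine receptors and feedback, none of 21 tested genes passed, with 13 positive and 8 negative values. Of 17 tested interferon-stimulated genes 1 rose (Ifi27l2a), of 19 NF-kB genes 2 (Nfkbiz and Traf1), of 11 costimulatory and coinhibitory genes 1 (Cd48), of 13 glycolysis genes 1 (Pfkp), and of 24 cell cycle genes 3 (Ccnd2, Cdkn1b and H2afz), with none that fell in these 5 lists. Of 16 pattern recognition receptors, Cd180 rose and Tlr12 fell, and of 14 epithelial-type adhesion genes beyond the gate, Pcdh7 and Emp1 rose and Itgae fell. Nonclassical monocyte markers had 1 of 5 that rose, Nr4a1, whose call was lost without the members that stood apart (adjusted p = 0.264). Mature dendritic cell (4 tested) and plasmacytoid dendritic cell markers (3 tested) had no call, and T cell, B cell, mast cell, endothelial and erythroid markers had none tested. Summed erythroid markers were at 6.65 and 4.65 CPM in adult members and 1093 and 14.1 CPM in neonatal members. Of 9 sex-linked genes tested, Eif2s3y and Uty rose and Xist and Tsix fell.

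Age effects were set against those of programme-positive cDC1, cells with 2 or more programme UMIs. There, 1087 of 7635 genes tested were called (14.2%). Of the members' 286 calls, 223 (78.0%) were called the same way in programme-positive cDC1, which is 20.5% of its 1087 calls, and 0 the opposite way. The classes differ in cells and summed UMIs, so a call in one alone is no difference. The difference of age effects itself, fitted as the interaction of age and class while blocking on pool, was called for 42 of 8373 genes (0.502%), 21 (0.251%) above 0 and 21 (0.251%) below 0. A value above 0 means a more positive fold, adult over neonatal, in the members.

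Of the interaction genes, 41 remained when uncharacterised and gate genes were set aside, and 24 of these were called in the same direction without the cells that stood apart. In 9 of the 41, over 40% of the adult members' UMIs lay in 1 cell. Plac8 was high in members of both ages, with 253 and 335 CPM in adult pools, against 236 and 309 CPM in neonatal pools. In programme-positive cells it was at 20.03 and 26.2 CPM in adult pools, against 46.8 and 144 CPM in neonatal pools. The difference was 2.00 ± 0.28 (adjusted p = 3.52e-09), and 1.70 without the cells that stood apart (adjusted p = 6.07e-06). Dnase1l3, a secreted nuclease, differed likewise, with 86.4 and 97.6 CPM in adult pools, against 120.4 and 110.1 CPM in neonatal pools in members and 26.4 and 37.5 CPM in adult pools, against 140.5 and 135 CPM in neonatal pools in programme-positive cells, a difference of 1.74 ± 0.32 (adjusted p = 3.81e-05). Dnase1l3 was named after its values were seen, for its likeness to Plac8.

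Below 0, the fold of several genes was less positive or more negative in the members. Klrk1 was at 93.1 and 83.7 CPM in adult pools, against 35.5 and 34.4 CPM in neonatal pools in members, and at 91.05 and 96.2 CPM in adult pools, against 4.97 and 7.22 CPM in neonatal pools in programme-positive cells (difference -2.63 ± 0.43, adjusted p = 8.91e-07). Neonatal members thus already carried more Klrk1 than neonatal programme-positive cells in every pool. S100a4 was at 156 and 191 CPM in adult pools, against 26.7 and 67.9 CPM in neonatal pools in members, and at 259 and 312 CPM in adult pools, against 22.7 and 32.9 CPM in neonatal pools in programme-positive cells (difference -1.52 ± 0.28, adjusted p = 3.95e-05). Cxcl16, a membrane-bound chemokine, was at 126 and 60.4 CPM in adult pools, against 132 and 156 CPM in neonatal pools in members, and at 307 and 339.9 CPM in adult pools, against 198 and 181 CPM in neonatal pools in programme-positive cells (difference -1.38 ± 0.24, adjusted p = 7.85e-06). All 3 remained called without the cells that stood apart. S100a6 and Ccr2 also rose less in the members than in programme-positive cells by the same interaction test. The difference was -0.87 ± 0.17 for S100a6 (adjusted p = 0.000175) and -0.70 ± 0.14 for Ccr2 (adjusted p = 0.000346). Ccr2 was at 863 and 750 CPM in adult pools, against 312 and 293 CPM in neonatal pools, in programme-positive cells. Both calls were kept without the cells that stood apart. Id3, a helix-loop-helix inhibitor, was at 13.3 and 92.98 CPM in adult pools, against 77.5 and 102 CPM in neonatal pools in members, and at 15.5 and 31.2 CPM in adult pools, against 2.13 and 8.02 CPM in neonatal pools in programme-positive cells (difference -3.15 ± 0.52, adjusted p = 1.46e-06), with 41.7% of its adult member UMIs in 1 cell.

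**Figure D4:**
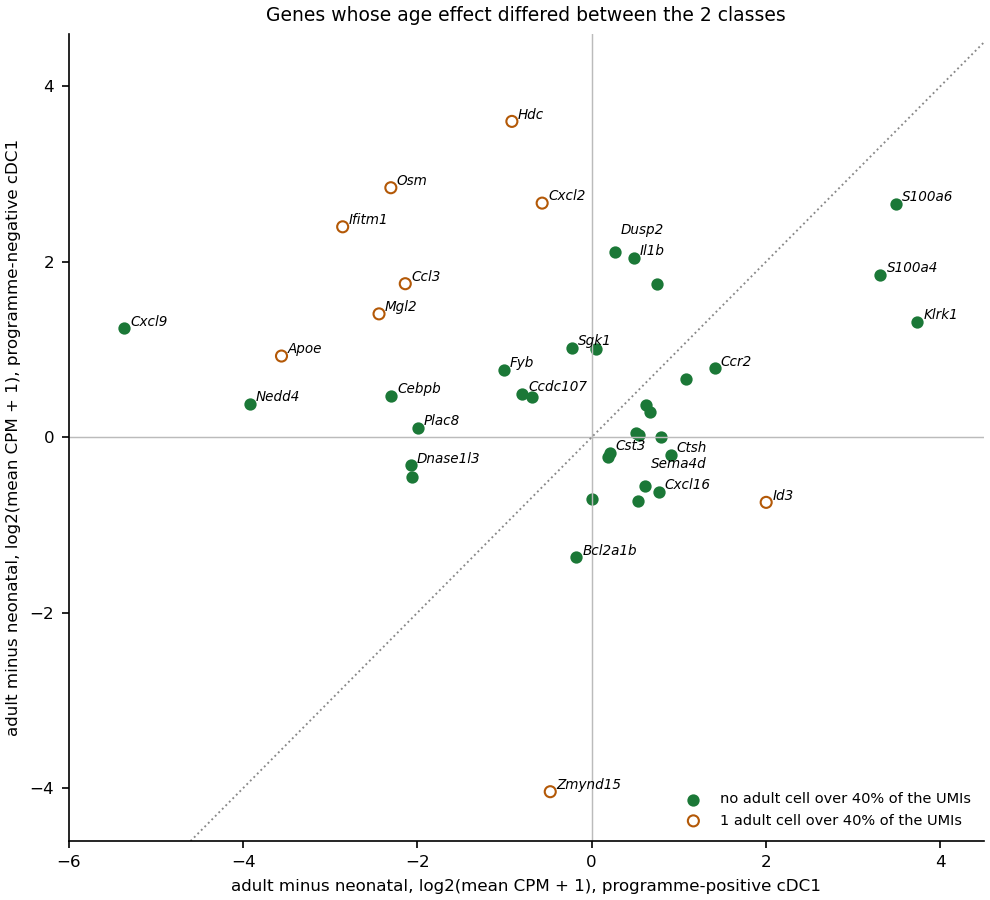
Age effect, as the difference adult minus neonatal of log2(mean CPM + 1), of the genes called in the interaction, in members (y axis) against programme-positive cDC1 (x axis), 1 point per gene, with the diagonal of equal effects; open circles are genes with over 40% of the adult members' UMIs in 1 cell. Plac8 and Dnase1l3 lie above the diagonal and Klrk1, Id3 and S100a4 below it.

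Set against cDC2 of the same pools, the differences above 0 with the smallest p included S100 and annexin genes. In cDC2, 804 of 6821 genes tested were called (11.8%), and 143 of the members' 286 calls (50%) were called the same way there and 3 the opposite way. Of 7640 genes tested for the difference, 106 were called (1.39%), 36 (0.471%) above 0 and 70 (0.916%) below 0. S100a6 was at 708 and 735 CPM in adult pools, against 118 and 109 CPM in neonatal pools in members, and at 1883 and 2041 CPM in adult pools, against 1990.1 and 2108 CPM in neonatal pools in cDC2 (difference 2.58 ± 0.13, adjusted p = 3.59e-21). Klrd1 was at 259.5 and 220.3 CPM in adult pools, against 110.3 and 107 CPM in neonatal pools in cDC2 (difference 2.98 ± 0.41, adjusted p = 2.17e-06), so neonatal cDC2 already carried it. Anxa2 was at 572 and 719 CPM in adult pools, against 633 and 578 CPM in neonatal pools in cDC2 (difference 1.01 ± 0.14, adjusted p = 4.05e-06). Below 0, H2-Aa was at 12219.5 and 13145 CPM in adult pools, against 7892 and 7559 CPM in neonatal pools in cDC2 (difference -0.55 ± 0.08, adjusted p = 2.05e-06), a larger rise than in the members. Cd81, a tetraspanin, was at 432 and 307 CPM in adult pools, against 209 and 219 CPM in neonatal pools in members, and at 130.4 and 161 CPM in adult pools, against 20.3 and 16.6 CPM in neonatal pools in cDC2 (difference -2.28 ± 0.29, adjusted p = 3.52e-07).

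The members were not uniform. Plac8 was in few cells at a high level: 3 or more Plac8 UMIs were found in 12 adult members (16.4%, 8 and 4 by pool) and in 62 neonatal members (15.9%, 27 and 35 by pool). Among programme-positive cells, 4 adult (1.78%) and 15 neonatal cells (4.16%) reached that count. The cut was set after seeing the data, so the following levels, over the summed cells of an age, are a description. In neonatal members with 3 or more Plac8 UMIs, Itgae was at 226 CPM, against 461 CPM in those with fewer, Naaa at 1353 against 1970 CPM and Xcr1 at 417 against 481 CPM. Other cDC1 markers were split. Clec9a was higher there, at 415 against 330 CPM, as was Cadm1, at 293 against 251 CPM. Tlr3 was lower, at 194 against 231 CPM, as was Wdfy4, at 676 against 777 CPM. In the same neonatal cells, S100a4 was at 180 against 19.3 CPM, S100a6 at 257 against 82.4 CPM, Id3 at 266 against 52.04 CPM and Csf1r at 83.4 against 17.4 CPM. They thus had less Itgae and Naaa and more S100a4, S100a6, Id3 and Csf1r.

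Adult members showed part of this split. With 3 or more Plac8 UMIs, adult Itgae was at 142 CPM, against 201 CPM with fewer, and Naaa at 1143 against 1387 CPM. S100a6 ran the other way, at 390 against 811 CPM, as did S100a4, at 88.6 against 193.5 CPM, Id3, at 8.86 against 57.1 CPM, and Csf1r, at 8.86 against 14.9 CPM from 1 and 6 UMIs, and Klrd1 was near equal, at 97.4 against 104 CPM. Pcdh7 had no UMI in the 12 adult cells rich in Plac8 and stood at 54.6 CPM in the other 61. Bst2, an interferon-inducible surface protein, was at 345.5 against 106.7 CPM in adult members and at 155.6 against 97.3 CPM in neonatal members. Irf8 in neonatal members was at 2124 against 2380 CPM, so both subsets kept a cDC1 level of it. In adult members Irf8 was at 1639 against 2056 CPM and Wdfy4 at 549 against 692 CPM. Adult Clec9a, at 221.5 against 342.3 CPM, and Cadm1, at 150.6 against 196 CPM, were lower, unlike in neonatal members. Adult Xcr1 was at 407.5 against 441.6 CPM and Tlr3 at 248 against 235.7 CPM. Plac8 was at 3476 and 3163 CPM in adult pools, against 4884 and 5166 CPM in neonatal pools in nonclassical monocytes, and the part of their free RNA was not tested.

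**Figure D5:**
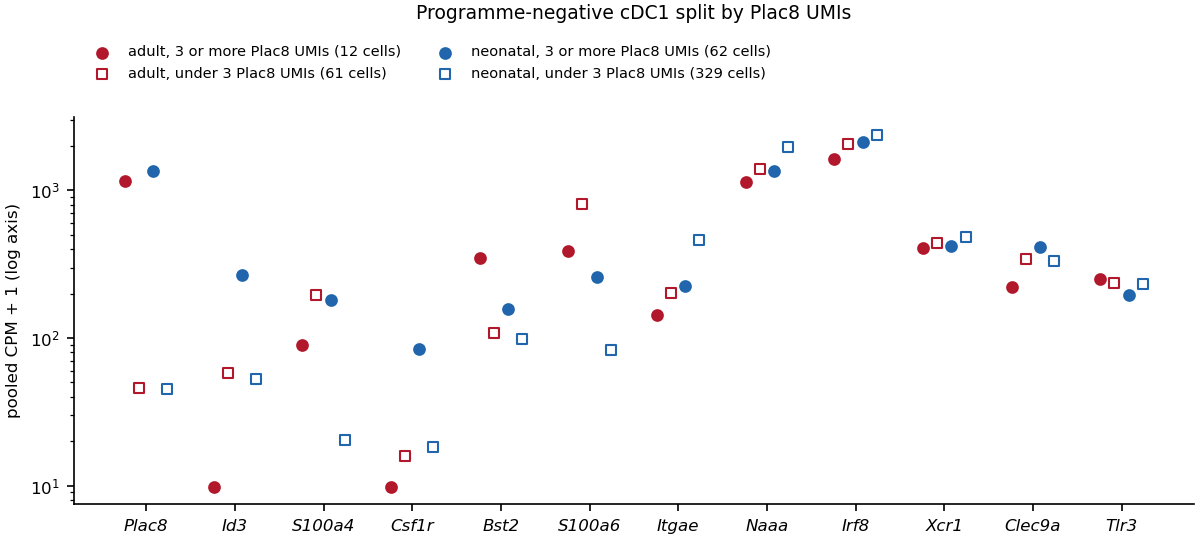
Levels (CPM + 1, log axis) of genes in members with 3 or more Plac8 UMIs and in members with fewer, adult left of neonatal, 1 point per gene and subset, summed over the cells of an age. Neonatal Itgae was at 226 against 461 CPM, and neonatal S100a4 at 180 against 19.3 CPM.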

How the data were processed

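Droplet single-cell RNA sequencing of sorted lung cells was deposited as 1 matrix of raw, unnormalized UMI counts (whole numbers) for 32285 genes and 2 hashtags, per the file headers. The authors made it with Cell Ranger 6.1.2 on mm10, and Seurat 4.2.0 was also named, per the submitters' processing notes. The barcode suffix gives the pool, per the labels, and columns not used came to 0.

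UMIs of gated cells were summed per pool, the pool being the replicate. After filterByExpr and TMM scaling, the quasi-likelihood test of edgeR 4.0.16 (glmQLFit, robust, and glmQLFTest) under R 4.3.3 compared 4 sums by age, and 8 sums for each interaction with pool as a block. Benjamini-Hochberg adjusted p under 0.05 made a call. Python 3.11.15, numpy 2.4.6, scipy 1.17.1, pandas 2.3.3 and scanpy 1.11.5 (Scrublet, as an alternative only, so doublets were kept; it marked 1 and 1 adult and 5 and 8 neonatal members) were used. Gene coordinates are from GENCODE M21 on GRCm38, counted from 1.

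The members and the 41 gene lists were chosen with earlier results of these data known. Named genes were the 12 largest changes in each direction among calls whose pools did not overlap and whose higher age averaged 50 CPM or more, up to 4 per list by p, the cDC1 markers, and 6 per direction of each interaction, without uncharacterised, haemoglobin, immunoglobulin, T cell receptor, sex-linked and gate genes. Sex-linked genes and others given by list or chosen after their values were seen are named besides, and a few genes of these lists are not reported here. Folds with 1 to 3 UMIs in an age are raw ratios with exact 95% counting intervals, and with 0 UMIs bounds from 3 counts over the age; intervals cover counting error only.

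The age test was tested on simulated data with 200 changed genes (6593 genes): it recovered 10.9% at 1.5-fold, 34.7% at 2-fold, 79.2% at 4-fold and 87% at 8-fold. The programme interaction (8274 genes) recovered 2.17% at 2-fold and 48% at 4-fold, and the cDC2 interaction (7329 genes) 6.12% and 58.7%. Every simulated gene was given the same fixed spread between pools, so recovery may be lower for genes whose pools vary more. Pool numbers did not pair the pools (correlation of deviations -0.0551 over 6748 genes). Alternatives were DESeq2 1.42.0, other filters, thresholds, depths and cell subsets, and each pool left out.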

Additional observations from a re-analysis of the deposited data

Results flagged for a closer look

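Each of the following genes had an age effect that differed between the members and another class in a tested interaction, given as the difference of log2 fold changes, adult over neonatal, members minus the other class. Against programme-positive cDC1, the difference was above 0 for Apoe (4.49), Cebpb (2.91), Plac8 (2.00), Cxcl2 (3.37), Mgl2 (4.18) and Cxcl9 (9.51). Cxcl9 had no UMI in adult programme-positive cells, so its fitted value depends on the prior count. Without the cells that stood apart, the differences of Apoe (adjusted p = 0.944), Cebpb (0.778), Cxcl2 (0.928) and Mgl2 (0.99) were no longer called by edgeR's quasi-likelihood test, and 1 cell held 48.9%, 32%, 60.2% and 93.3% of their adult member UMIs. Apoe UMIs were part of the rule that set those cells apart, so the refit is no test of Apoe. Plac8 and Cxcl9 remained called (adjusted p = 6.07e-06 and 0.000489). Of the 105 Cxcl9 UMIs of neonatal programme-positive cells, 45.7% lay in 1 cell, and adult members held 6 UMIs and neonatal members 12.

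The difference was below 0 for Klrk1 (-2.63), Id3 (-3.15), Bcl2a1b (-1.16), Cst3 (-0.45), Cxcl16 (-1.38) and S100a4 (-1.52), and all 6 remained called without those cells. Bcl2a1b was at 226 and 79.03 CPM in adult pools, against 413 and 379 CPM in neonatal pools in members, and at 411 and 451 CPM in adult pools, against 482 and 490.3 CPM in neonatal pools in programme-positive cells. Cst3, a cysteine protease inhibitor, was at 31898 and 27485 CPM in adult pools, against 33762 and 33365 CPM in neonatal pools in members, and at 40449 and 40020.4 CPM in adult pools, against 35606 and 34051 CPM in neonatal pools in programme-positive cells.

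Against cDC2, the difference was above 0 for S100a6 (2.58), S100a10 (1.20), Vim (0.79), Klrd1 (2.98), Anxa2 (1.01) and Sv2b (5.23), and below 0 for Malat1 (-0.62), Cst3 (-0.62), Fos (-0.95), Cd81 (-2.28), Cxcl16 (-2.10) and H2-Aa (-0.55). Sv2b, a synaptic vesicle protein, was at 29.9 and 23.2 CPM in adult pools, against 2.42 and 0.781 CPM in neonatal pools in members, and at 16.3 and 7.44 CPM in adult pools, against 39.9 and 26.9 CPM in neonatal pools in cDC2, so its order between ages turned. Vim, vimentin, was at 2705 and 4082 CPM in adult pools, against 1517 and 1383 CPM in neonatal pools in members, and at 2631 and 2996 CPM in adult pools, against 2384 and 2320.2 CPM in neonatal pools in cDC2. Fos was at 1828 and 2436 CPM in adult pools, against 1556 and 1267 CPM in neonatal pools in members, and at 1414 and 1383 CPM in adult pools, against 603 and 475 CPM in neonatal pools in cDC2.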

How the results depend on the processing

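Genes higher in adult members numbered 188 and genes lower 98. DESeq2's Wald test gave 69 and 15, members thinned to 1000 UMIs 23 and 9, neonatal male cells only 57 and 11, and members without UMIs of other cell types 122 and 60. At most 1 programme UMI gave 372 and 222, at least 1 Xcr1 or Clec9a UMI 301 higher, no low-count filter 212 lower, and the stricter cell filter 54 lower. Leaving out 1 pool gave 64 to 214 higher and 18 to 128 lower, with the single pool left in an age assumed to vary like the others. No cause of these moves was tested, beyond fewer UMIs, cells or genes in several. With the replicate block the counts were 180 and 85, and pool numbers share only a number. Of the named calls, 17 of 96 were kept in every alternative that tested them, and 60 in all but DESeq2, thinning, male cells and left-out pools.

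Interaction calls against programme-positive cDC1 (21 above 0, 21 below 0) were 2 and 8 with thinning, 10 above 0 without the cells that stood apart, and 7 to 26 and 5 to 55 with 1 pool left out. Against cDC2 (36 and 70) they were 19 and 31 with thinning, 107 below 0 with no low-count filter, and 10 to 75 and 20 to 101 with 1 pool left out. Where either value was called, directions turned for Apoe without the members that stood apart (-2.15), Mgl2 in the programme interaction (-3.81 without adult pool 1, up to 5.04 with other pools left out) and S100a9 (-2.87 without adult pool 1, up to 3.54), Ccl5 with at least 1 Xcr1 or Clec9a UMI (1.43), and Ccl4 in male cells (-1.02). The members that stood apart were picked partly by their Apoe UMIs. Among genes with no age call, S100a8 was at -1.63 without adult pool 1 and 3.36 without adult pool 2, Cxcl2 at -0.59 and 3.66 and Hp at -6.87 and 1.91, and Cebpb at -1.19 without the members that stood apart, against 0.58 with them. Mean shares without the programme (21.1% adult, 38.4% neonatal) were 64.8% and 81.7% with thinning, and in adult pools 18.6% in cells with at least 3000 UMIs and 20.8% with at least 3 Xcr1 and Clec9a UMIs. Depth limits the adult side, where 73 cells carry every value.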
